A study of Arabidopsis thaliana with 45 samples.

Results

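The regions described here are the narrow H3K27me3 regions of wild-type Arabidopsis thaliana shoots. They are stretches of at least 150 bp and under 500 bp on chromosomes 1 to 5 whose bases lay under a peak in all 3 wild-type (Ctrl) libraries, after stretches separated by gaps of 200 bp or less had been joined. There were 2655 of them among 6986 regions of any length (38.005%), and they held 0.855 Mb, or 18.7% of the bases of all these regions. Their median length was 316 bp. A further 3794 regions measured 500 to under 2000 bp (median 840 bp), 81 measured 2000 bp or more, and 456 were shorter than 150 bp. Chromosomes 1 to 5 carried 708, 428, 486, 423 and 610 narrow regions, between 36.7% and 39.8% of the regions of each chromosome. The regions were chosen on the Ctrl peak lists, so their coverage and length in Ctrl are a description and were not tested.

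Trimethylation of lysine 27 of histone H3 (H3K27me3) is placed by Polycomb repressive complex 2 (PRC2), a complex with a catalytic methyltransferase subunit and the scaffold subunit FIE. In Arabidopsis the mark usually lies over the transcribed part of single silenced genes, many of them regulators of flowering, meristems, seeds and stress responses. PRC2 first acts at short nucleation sites, and the mark is then known to spread over the gene body during growth, as at the flowering repressor FLC. TOR is a kinase that couples nutrient supply to growth.

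The series asks how FIE and TOR bear on chromatin state and gene expression. H3K27me3 was profiled in 27 chromatin immunoprecipitation libraries (9 groups of 3), H3K9me2, a mark of silent repeats, in 6 libraries (2 groups of 3), and RNA in 12 libraries (4 groups of 3). The aerial parts of 2-week-old plants grown on solid medium were taken from amiR-fie-es (an artificial microRNA against FIE, induced with oestradiol), SSTS/AAAA (a fie mutant carrying GFP-FIE with mutated phosphorylation sites), GFP-FIE (a fie mutant carrying unmutated GFP-FIE) and Ctrl (Col-0 wild type). Both complemented lines carry the fie mutation beside their transgene, while Ctrl carries neither. Seedlings 7 days old from liquid medium were tor-es (TOR silenced after oestradiol was given on day 3), Col-0 given AZD8055 or Torin2 (TOR inhibitors, 10 µM from day 4 for 3 days), Col-0 given DMSO, the solvent, for the same time, and untreated Col-0. The labels write the oestradiol dose as 10 mM and give no oestradiol treatment for the wild-type groups. They also do not name the promoters, the number of transgenic lines, or whether the 3 libraries of a group came from separately grown plants, so that p-values measure the spread between libraries, which may be technical.

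FIE RNA, the target of the silencing, was at 9.17, 8.80 and 8.84 CPM (library-size normalised counts) in amiR-fie-es, against 15.7, 18.3 and 18.6 CPM in Ctrl (log2 fold change -0.98 ± 0.07 SE, edgeR adjusted p = 4.06e-16). In SSTS/AAAA it was at 12.2, 11.7 and 11.5 CPM, against 25.1, 27.5 and 23.7 CPM in GFP-FIE (-1.11 ± 0.06, adjusted p = 8.28e-20), so these lines differ in FIE RNA as well as in the mutated sites. RNA libraries held 28866845 to 34543091 counts. Of the markers chosen to check the aerial part, the 3 leaf genes summed to 23432 to 23777 CPM in amiR-fie-es, against 30915 to 31428 CPM in Ctrl, and to 22784 to 23652 CPM in SSTS/AAAA, against 32476 to 32851 CPM in GFP-FIE. The root endodermis gene CASP1 stayed at or below 0.0362 CPM and was at 0 in 8 of 12 libraries, and the root gene PYK10 was at 241 to 261 CPM. The 6 root markers summed to 289 to 323 CPM, the 3 pollen markers to at most 0.948 CPM and the 3 seed markers to at most 1.102 CPM. Peak lists carry no read depth for ChIP. These lists covered 0.859 to 0.911 Mb in amiR-fie-es, 2.41 to 2.45 Mb in SSTS/AAAA, 5.28 to 5.67 Mb in GFP-FIE, 6.05 to 6.68 Mb in Ctrl, 2.83 to 3.19 Mb in tor-es, 6.64 to 7.09 Mb in AZD8055, 6.25 to 6.78 Mb in Torin2, 7.88 to 8.22 Mb in DMSO and 4.28 to 4.51 Mb in Col-0. How far these totals set the coverage of the narrow regions was not tested.

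Narrow regions had lower peaks than longer ones. The fold enrichment that the authors' peak caller gave at the summit had a median of 3.16, 3.22 and 3.21 over the narrow regions in the 3 Ctrl libraries, and a median of 4.41 to 4.53 over regions of 2000 bp or more. The shortest Ctrl peak was 200 bp long, so a narrow region below that length is a part of a peak. In 566 of the 2655 (21.3%) the peaks of all 3 Ctrl libraries were shorter than 500 bp, and in 324 (12.2%) all 3 libraries had a peak of 500 bp or more of which only a short stretch was shared. At the lower limit, the 49 regions of 150 to under 160 bp had a median Ctrl fold of 2.97 and were covered over 33.9% in Col-0, and the 54 regions of 140 to under 150 bp had 3.19 and 37.3%. At the upper limit, the 61 regions of 490 to under 500 bp had 3.91 and 68.0%, and the 77 regions of 500 to under 510 bp had 3.66 and 70.3%. The values on either side of each limit thus lay close together.

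Most narrow regions lay inside genes, of which their length limit lets them cover only a part. At least 100 bp of an annotated gene was held by 2129 narrow regions (80.2%), against 92.4% of the regions of 500 to under 2000 bp, and 495 (18.6%) touched no gene, against 7.41%. Of the narrow regions, 1903 (71.7%) lay wholly within a gene. A narrow region covered a median of 16.7% of its gene, while a region of 500 to under 2000 bp covered 51.9%. The genes had similar median lengths of 1846 and 1762 bp, so this difference follows from the length limits. Longer regions also meet a gene more readily, and the part of length in the shares within genes was not tested. In 456 cases (17.2%) the gene also carried a region of 500 bp or more. The median distance to the nearest other Ctrl region was 1359 bp for narrow regions and 3587 bp for regions of 500 to under 2000 bp, and 43.7% of the narrow regions had a neighbour within 1 kb. A narrow region and no longer one was found at 1387 of 27432 protein-coding genes (5.06%).

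Narrow regions were counted by gene symbol in families picked with earlier results known, and the shares varied widely. Among genes named CLE, which encode small signalling peptides, 9 of 30 carried one and 7 carried a longer region. The share was 11 of 37 for HB homeobox genes, 26 of 120 for MYB transcription factors, 13 of 67 for WRKY transcription factors and 47 of 241 for CYP (cytochrome P450) genes. It was 0 of 16 for genes named SAUR, 11 of 326 for MIR genes, 1 of 13 for bHLH genes and, among other peptide genes, 3 of 81 for LCR, 2 of 34 for RALF and 4 of 13 for PDF. Over all protein-coding genes it was 6.57%.

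In lists of developmental regulators and PRC2 subunits, narrow regions lay at 11 of 29 floral and flowering genes, 7 of 15 meristem and homeobox genes, 5 of 8 embryo and seed regulators and 1 of 11 PRC2 subunit genes. Of those with a narrow region, most also carried a longer region, and the narrow one was then a satellite. MAF5, CUC1, CUC3 and 3 seed regulators had a narrow region alone. The lists were chosen with earlier results of these data known.

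**Figure D1:**
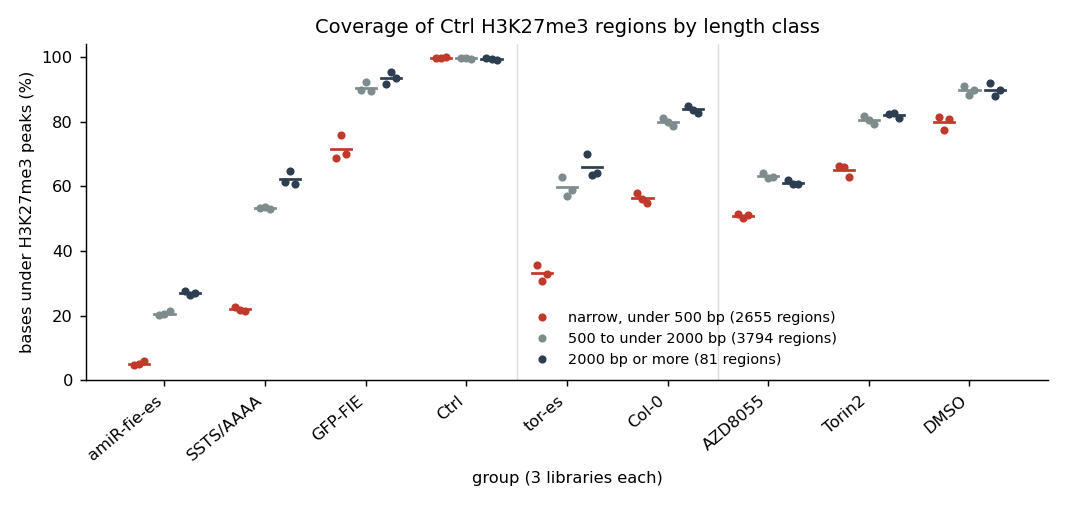
Share of the bases of Ctrl H3K27me3 regions (vertical axis, percent) that lay under the peaks of each of 27 libraries, by group; points are libraries, lines are group means, and colours are the 3 length classes. Narrow regions lay below longer ones in every group other than Ctrl, from which the regions were taken.

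In the FIE lines the narrow regions lost coverage further than the long ones. The narrow bases under peaks were 22.6%, 21.6% and 21.5% in the 3 SSTS/AAAA libraries, against 68.8%, 75.8% and 70.1% in GFP-FIE. The groups did not overlap, and the means of 21.9 ± 0.60% and 71.5 ± 3.7% (SD, n = 3 each) differed by -49.6 points. Single SSTS/AAAA libraries lay 46.2 to 54.2 points below single GFP-FIE libraries. The exact two-sided permutation test gave p = 0.1, the smallest value that 3 against 3 libraries allow, and 0.1 after adjustment over 4 comparisons. None of the library comparisons of coverage or fold below could therefore pass a threshold of 0.05.

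Coverage of the regions of 2000 bp or more was 60.7% to 64.7% in SSTS/AAAA, against 91.7% to 95.2% in GFP-FIE. The ratio of narrow to long coverage within a library was 0.369, 0.334 and 0.355 in SSTS/AAAA, against 0.750, 0.795 and 0.750 in GFP-FIE. The groups again did not overlap (difference of means -0.41, exact permutation p = 0.1). Where a narrow region kept a peak, that peak was not lower. Over the 319 narrow regions with a peak in all 6 libraries the mean log2 fold was 2.00, 1.99 and 1.98 in SSTS/AAAA and 1.92, 1.89 and 1.89 in GFP-FIE (difference 0.09, exact permutation p = 0.1). Regions that lost their peak do not enter this mean.

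A region was called present in a library when at least 50% of its bases lay under peaks, lost when it was present in all 3 libraries of the second group and none of the first, and gained in the reverse case. SSTS/AAAA against GFP-FIE had 611 lost, 0 gained and 262 kept narrow regions. The lost ones were 23.0% of all narrow regions, against 21.0% of all 6986 regions, while 9.87% of narrow regions were kept, against 27.2% of all regions. Of the 1452 narrow regions present in all GFP-FIE libraries, 42.1% were lost and 18.0% were kept, against 29.1% and 37.6% of all regions present there.

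The lost region with the highest fold lay in LBD13, a LOB-domain transcription factor gene (chr2:12932110-12932430, TAIR10, 321 bp). It had no peak in any SSTS/AAAA library, against folds of 4.45, 6.41 and 6.44 in GFP-FIE. It also had peaks in all 3 libraries of tor-es, AZD8055, Torin2, DMSO and Col-0, and was present in 1 amiR-fie-es library. A second lay in PIP2E, an aquaporin gene (chr2:16291545-16292041, 497 bp), where 2 SSTS/AAAA libraries had a peak of fold 3.44 and 3.96 over a smaller part, against 5.86, 5.54 and 4.94 in GFP-FIE. This region too was present in 1 amiR-fie-es library. The region in AT2G43140 (chr2:17935324-17935683) had peaks in GFP-FIE and Ctrl alone. Its folds were 5.38, 5.86 and 5.20 in GFP-FIE and 5.07, 5.79 and 5.48 in Ctrl, and none of the 21 libraries of the other groups had a peak there. The RNA of AT2G43140 was at 5.22 CPM in SSTS/AAAA, against 0.179 CPM in GFP-FIE (log2 fold change 4.82 ± 0.23 SE, edgeR adjusted p = 4.17e-22).

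After FIE silencing little of the narrow class was left. Narrow coverage was 4.63%, 4.99% and 5.83% in amiR-fie-es, against 99.7% to 99.9% in Ctrl, which chose the regions, and coverage of the regions of 2000 bp or more was 26.4% to 27.7% in amiR-fie-es. No test was made on this contrast. In all 3 amiR-fie-es libraries 63 narrow regions (2.37%) were present, against 6.21% of all regions, and 2420 (91.15%) were present in none. Most longer regions were lost as well. Lost against Ctrl were 91% of the narrow regions and 72.8% of those of 2000 bp or more. For the length class between these it was 72.4%. Every one of the 63 stood in at least 1 SSTS/AAAA library, and 56 stood in all 3. The reverse, present in all SSTS/AAAA and no amiR-fie-es library, held for 139 narrow regions and was counted for these alone.

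TOR silencing and TOR inhibitors also went with less coverage of narrow regions. It was 35.7%, 30.6% and 32.9% in tor-es, against 57.9%, 56.2% and 54.7% in Col-0 (means 33.1 ± 2.6% and 56.2 ± 1.6%, difference -23.2 points, exact permutation p = 0.1). It was 51.6%, 50.1% and 51.0% with AZD8055 and 66.4%, 65.9% and 62.9% with Torin2, against 81.3%, 77.3% and 80.8% with DMSO. The differences were -28.9 points for AZD8055 and -14.7 points for Torin2 (exact permutation p = 0.1 each). In none of these 3 comparisons did the groups overlap. Both inhibitor comparisons share the DMSO libraries.

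Relative to long coverage, narrow coverage was lower under tor-es than in Col-0, and by a smaller margin under the inhibitors than in DMSO. Mean coverage of regions of 2000 bp or more was 65.8% in tor-es, against 83.8% in Col-0. It was 61.0% with AZD8055 and 82.0% with Torin2, against 89.8% with DMSO. In points, the narrow and long classes thus fell about alike with AZD8055. The ratio of narrow to long coverage was 0.511, 0.482 and 0.513 in tor-es, against 0.682, 0.671 and 0.661 in Col-0 (difference -0.17). It was 0.834, 0.826 and 0.842 with AZD8055 and 0.806, 0.798 and 0.777 with Torin2, against 0.885, 0.878 and 0.902 with DMSO, with differences of -0.05 for AZD8055 and -0.09 for Torin2 (exact permutation p = 0.1 each). With AZD8055 the sign depended on the peak threshold. When only peaks with a −log10 q of at least 5 were used, the difference was 0.08. Mean log2 folds over regions with peaks in all 6 libraries differed by -0.04 in tor-es against Col-0 (425 regions), 0.03 in AZD8055 against DMSO (1201 regions) and -0.12 in Torin2 against DMSO (1511 regions), with exact permutation p = 0.1 each. The tor-es difference was 0.004424 when a base had to lie under peaks in only 2 of 3 Ctrl libraries.

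The inhibitors differed from each other at the same dose and time. Torin2 libraries had 14.1 points more narrow coverage than AZD8055 libraries, a narrow-to-long ratio lower by 0.04 and, over 1100 regions, a mean log2 fold lower by 0.16 (exact permutation p = 0.1 each). This single pair was compared after the values had been seen.

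**Figure D2:**
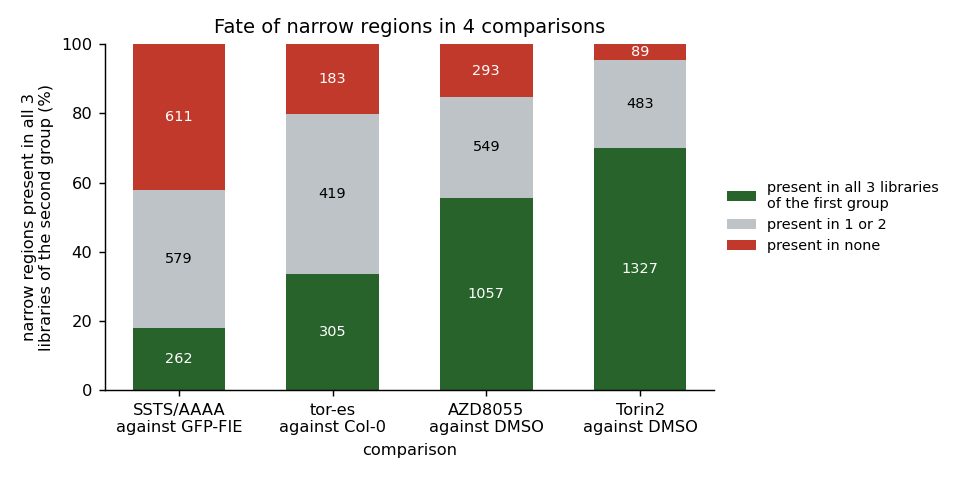
Narrow regions present in all 3 libraries of the second group of each comparison (bars, 100% each), split by presence in the first group, with the number of regions printed in each block. The share present in none was 42.1% for SSTS/AAAA, 20.2% for tor-es, 15.4% for AZD8055 and 4.69% for Torin2, against 29.1%, 12.5%, 14.6% and 3.49% of the regions of any length in the same order.

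In tor-es against Col-0, 183 narrow regions were lost (6.89%, against 7.13% of all regions), 4 were gained (0.151%, against 0.0859%) and 305 were kept (11.5%, against 29.9%). AZD8055 against DMSO had 293 lost (11.0%, against 11.8%), 5 gained (0.188%, against 0.0716%) and 1057 kept (39.8%, against 49.3%). Torin2 against DMSO had 89 lost (3.35%, against 2.82%), 5 gained (0.188%, against 0.129%) and 1327 kept (49.98%, against 65.0%). These shares of all narrow regions depend on how many stood in Col-0 or DMSO. Of the narrow regions present in all Col-0 libraries, 20.2% were lost in tor-es (12.5% for all regions) and 33.6% were kept (52.5%). Of those present in all DMSO libraries, 15.4% were lost with AZD8055 (14.6%) and 55.7% were kept (61.1%), while 4.69% were lost with Torin2 (3.49%) and 69.9% were kept (80.5%). The count lost in tor-es was 281 without the third Col-0 library, and the count lost with Torin2 was 146 without the first and 154 without the second Torin2 library.

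DMSO and Col-0 seedlings share genotype and age, and the narrow regions differed between them. Coverage was 81.3%, 77.3% and 80.8% in DMSO, against 57.9%, 56.2% and 54.7% in Col-0, and the groups did not overlap. Present in all DMSO and no Col-0 library were 185 narrow regions (6.97%, against 3.81% of all regions), and 26 showed the reverse (0.979%, against 0.601%). DMSO libraries had 12870 to 13268 peaks, against 6882 to 7111 in Col-0, and the part of peak number in this difference was not tested. AZD8055 libraries had 13743 to 14638 peaks and Torin2 libraries 11171 to 11927. The DMSO libraries belong to the same set as the inhibitor libraries, and solvent and library set cannot be told apart here.

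DFR, which encodes dihydroflavonol reductase of anthocyanin synthesis, carried a pair of narrow regions (chr5:17164688-17165133 and chr5:17165352-17165662). No tor-es library had a peak at either, against folds of 5.38, 4.83 and 6.59 in Col-0, where 1 peak spanned both. Neither was present in any SSTS/AAAA or amiR-fie-es library, against all 3 GFP-FIE libraries. DFR RNA stood at 1.72 CPM in SSTS/AAAA, against 20.0 CPM in GFP-FIE (log2 fold change -3.54 ± 0.09 SE, edgeR adjusted p = 5.54e-32), and at 2.64 CPM in amiR-fie-es, against 17.2 CPM in Ctrl (-2.71 ± 0.09, adjusted p = 2.29e-28). Other regions lost in tor-es lay in AT5G55330, AT2G23440 and AT3G10080. The 4 gained in tor-es lay in AT1G62660, AT3G49630, AT5G18460 and AT1G66320.

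FUS3, a B3-domain regulator of seed maturation, lost its narrow region (chr3:9854903-9855240) under both inhibitors. The gene also carries a region of 500 bp or more, whose state is not given here. At the narrow region, no AZD8055 library and 1 Torin2 library (fold 2.23, over less than 50% of the region) had a peak, against folds of 4.67, 5.13 and 5.26 in DMSO. None of the untreated Col-0 libraries of the same age had one. NIMIN1, whose product binds the immune regulator NPR1, lost its region (chr1:498034-498399) with AZD8055 but had folds of 3.24, 3.36 and 3.38 with Torin2, against 5.84, 4.29 and 3.83 in DMSO. AT4G28330 lost its region under both. AT2G27080 and AT5G37540 were among those lost with Torin2.

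Only 4 narrow regions stood in every GFP-FIE, Col-0 and DMSO library and in no library of amiR-fie-es, SSTS/AAAA, tor-es, AZD8055 or Torin2, out of 712 in all of the first 3 groups. This pattern was looked for after the calls had been seen, and among narrow regions alone. They lay in CYP94C1, an enzyme of jasmonate breakdown (chr2:11809430-11809888), in AT1G15330, in COBL6 and in AT5G44310. At CYP94C1 the RNA went opposite ways, with 11.0 CPM in amiR-fie-es, against 4.51 CPM in Ctrl (log2 fold change 1.28 ± 0.09, edgeR adjusted p = 7.04e-17), and 1.84 CPM in SSTS/AAAA, against 11.8 CPM in GFP-FIE (-2.68 ± 0.10, adjusted p = 2.33e-26).

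**Figure D3:**
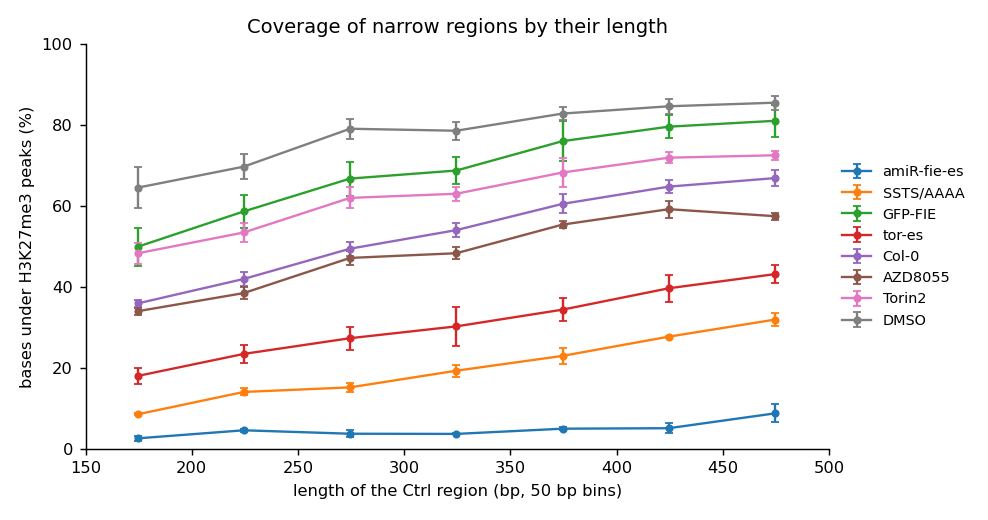
Share of narrow-region bases under peaks (vertical axis, percent; mean and SD of 3 libraries) by the length of the region in Ctrl (horizontal axis, 50 bp bins of 302 to 451 regions), for the 8 groups other than Ctrl. Coverage is higher in the longest bin than in the shortest in all 8 groups.

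Within the narrow class, the longest regions were covered further than the shortest in all 8 groups other than Ctrl. The rise was not steady in amiR-fie-es, where bins from 150 to under 350 bp had 2.58%, 4.57%, 3.72% and 3.68% and the bin of 450 to under 500 bp had 8.75 ± 2.2% (SD, n = 3). In the 302 regions of 150 to under 200 bp the covered share was 8.51 ± 0.21% in SSTS/AAAA, 49.9 ± 4.6% in GFP-FIE, 18.0 ± 1.9% in tor-es, 64.5 ± 5.1% in DMSO and 35.9 ± 0.75% in Col-0 (SD, n = 3 each). In the 347 regions of 450 to under 500 bp it was 31.9 ± 1.6% in SSTS/AAAA, 81.02 ± 3.9% in GFP-FIE, 43.2 ± 2.3% in tor-es, 85.5% in DMSO and 66.9 ± 1.9% in Col-0. The height of the Ctrl peak showed no such steady order in SSTS/AAAA. Over 4 groups of narrow regions ranked from the lowest to the highest Ctrl fold, SSTS/AAAA coverage was 22.1%, 19.8%, 18.0% and 27.1%, and Col-0 coverage was 49.6%, 52.4%, 54.2% and 66.7%.

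Longer regions of the same peak height were better covered. Among regions with a Ctrl fold of 3 to 3.5, the 645 narrow ones were covered over 18.6% in SSTS/AAAA, 66.7% in GFP-FIE, 30.7% in tor-es, 77.6% in DMSO and 50.9% in Col-0. The 463 regions of 500 to under 2000 bp in that range were covered over 49.3% in SSTS/AAAA, 88.5% in GFP-FIE, 56.3% in tor-es, 90.6% in DMSO and 75.7% in Col-0. The same order held in the other 5 ranges of fold between 2 and 5 in these 5 groups.

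Narrow in Ctrl often meant narrow elsewhere, though less so in Torin2 and DMSO. Where a narrow region was present in all 3 libraries of another group, the region of that group that held it was also shorter than 500 bp in 245 of 266 cases in SSTS/AAAA (92.1%), 1154 of 1452 in GFP-FIE (79.5%), 377 of 388 in tor-es (97.2%), 1128 of 1899 in DMSO (59.4%) and 838 of 907 in Col-0 (92.4%). It was so in 867 of 1079 cases in AZD8055 (80.4%) and 1018 of 1388 in Torin2 (73.3%). Of all regions of a group, its own narrow ones made up 48.2% in SSTS/AAAA, 38.1% in GFP-FIE and 54.4% in tor-es. That share was 56.9% in AZD8055, 48.05% in Torin2, 44.0% in DMSO and 46.3% in Col-0. Present in all 3 libraries were 10.02% of narrow regions in SSTS/AAAA, against 27.3% of all regions, 54.7% in GFP-FIE, against 72.3%, 14.6% in tor-es, against 32.5%, and 40.6% in AZD8055, against 49.7%. They were 52.3% in Torin2, against 66.5%, 71.5% in DMSO, against 80.8%, and 34.2% in Col-0, against 57.0%. Across the 24 libraries outside Ctrl, 30 narrow regions were present in none and 20 in all. These counts were made for narrow regions alone, so they do not show whether longer regions differ.

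**Figure D4:**
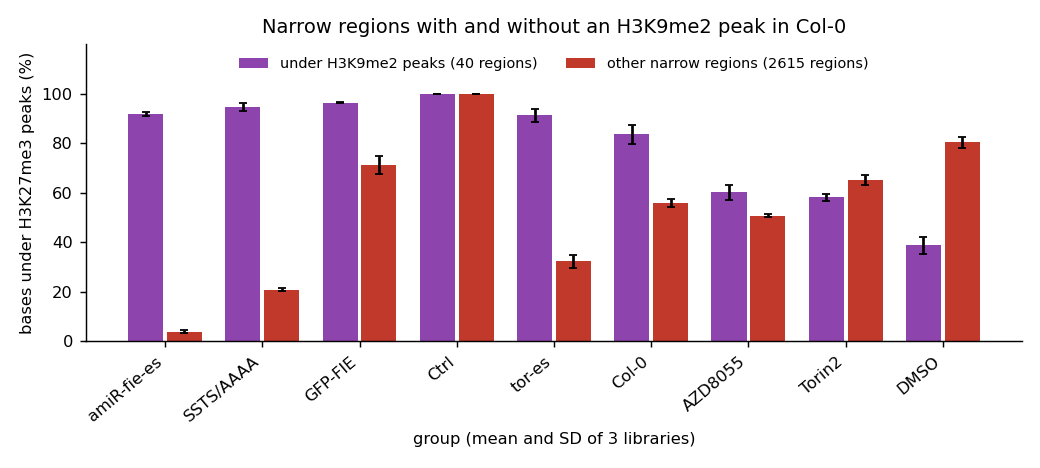
Share of bases under H3K27me3 peaks (vertical axis, percent; bars are means and error bars SDs of 3 libraries) for the 40 narrow regions under H3K9me2 peaks of all 3 Col-0 libraries and for the other 2615. The means of the 40 lie at 83.6% or above in amiR-fie-es, SSTS/AAAA, GFP-FIE, tor-es and Col-0 and at 38.8% in DMSO.

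A small set of narrow regions lay under H3K9me2 peaks and kept its coverage in the FIE lines. H3K9me2 peaks of all 3 Col-0 libraries touched 40 narrow regions (1.51%), 0.422% of the regions of 500 to under 2000 bp and 2 of the 81 longest. H3K27me3 peaks covered 90.8% to 92.3% of the bases of these 40 in amiR-fie-es, 93.3% to 96.3% in SSTS/AAAA, 96.1% to 96.4% in GFP-FIE, 88.3% to 93.4% in tor-es and 80.2% to 87.7% in Col-0. In the inhibitor experiment the order was another one, with 56.7% to 62.2% in AZD8055, 56.9% to 59.7% in Torin2 and 35.1% to 41.7% in DMSO. Over the other 2615 regions, coverage was 3.88% in amiR-fie-es, 20.9% in SSTS/AAAA, 71.2% in GFP-FIE, 32.2% in tor-es, 50.8% in AZD8055, 65.2% in Torin2, 80.4% in DMSO and 55.8% in Col-0. Of the 63 narrow regions left in amiR-fie-es, 36 belonged to the 40. Of the 40, 13 lay in genes (10 of them protein-coding) and 26 held no base of a gene. The sources used here do not state how reads with several matches were treated, and their part in these peaks was not tested.

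The 5 narrow regions with the highest Ctrl folds all belonged to these 40 and had no gene under them, with neighbouring annotated loci that are mostly pseudogenes. The highest, at chr2:3607009-3607377, had folds of 25.2, 25.0 and 24.8 in amiR-fie-es, 22.4, 21.5 and 22.2 in SSTS/AAAA, 22.6, 21.4 and 23.1 in GFP-FIE and 23.8, 21.2 and 23.7 in Ctrl. All groups of 2-week-old plants thus stood between 21.2 and 25.2. In the 7-day-old seedlings it had 24.6, 23.2 and 22.4 in tor-es and 23.5, 23.9 and 23.0 in Col-0, but 4.93, 6.94 and 6.07 in AZD8055, 5.72, 5.35 and 5.48 in Torin2 and 3.16, 3.30 and 3.63 in DMSO. At chr5:11723452-11723833 the folds were 11.2, 12.3 and 12.2 in amiR-fie-es and 12.4, 11.6 and 12.3 in Ctrl, and no library of AZD8055, Torin2 or DMSO had a peak. Of the regions called gained with an inhibitor, 4 of 5 for AZD8055 and 5 of 5 for Torin2 were in this set.

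Among the regions without H3K9me2, 27 stayed in all 3 amiR-fie-es libraries, and 26 of them lay in genes. They are described here although they were singled out after the calls had been seen. Since they were chosen for having peaks in amiR-fie-es, which favours high folds there, their folds are a description. A gain cannot be read from them. Over all narrow regions with a peak, the median fold was 4.14 to 4.33 in the amiR-fie-es libraries, against 3.16 to 3.22 in Ctrl. Every amiR-fie-es fold lay above every Ctrl fold at 17 of 27 and below at 2, and the median fold was 4.37 in amiR-fie-es, against 3.27 in Ctrl. At the other 36 regions left in amiR-fie-es it lay above at 3 and below at 7. Longer regions were not counted in this way. The gene of microRNA MIR172d, which targets floral repressors, had folds of 4.43, 4.63 and 4.78 in amiR-fie-es, against 2.39, 1.98 and 2.18 in Ctrl (chr3:20587872-20588043). A peak at NAC067, which spans both of its narrow regions, had 4.72, 4.56 and 5.54 in amiR-fie-es, against 1.92, 1.96 and 1.98 in Ctrl at the second of them (chr4:658911-659098). NAC074, another NAC transcription factor gene, had 3.75, 3.98 and 4.03 in amiR-fie-es, against 2.13, 2.04 and 2.23 in Ctrl (chr4:14090732-14091229).

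Developmental regulators were among the 27. The narrow region of CUC2, a NAC factor of organ boundaries (chr5:21903350-21903711), was present in all 27 libraries, with folds of 3.81, 2.70 and 2.67 in amiR-fie-es, against 2.41, 2.52 and 2.57 in Ctrl. That of SEP3, a MADS-box gene of floral organ identity (chr1:8595664-8595958), had 4.72, 3.40 and 3.97 in amiR-fie-es, against 3.47, 3.88 and 3.14 in Ctrl, groups that overlap. The second AP1 region (chr1:25985638-25986053) and the first DOG1 region (chr5:18590201-18590693) also stayed, as did regions in MIR166a, MYB47, BHLH32 and PYL12.

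A few narrow regions lay in the most strongly transcribed genes of the shoot. Of the 327 genes in the top 1% by RNA per kb of gene in Ctrl, 11 carried a narrow region (3.36%, against 5.58% of all genes in the count table). Of these 11 regions, 3 were present in all libraries of amiR-fie-es, 2 of SSTS/AAAA, 9 of GFP-FIE, 1 of tor-es, 10 of AZD8055, 10 of Torin2, 11 of DMSO and 6 of Col-0; the shares over all narrow regions are those given above. The region in RBCS1A, the small subunit of Rubisco (chr1:25048383-25048703), had folds of 7.50, 9.43 and 11.0 in amiR-fie-es and 6.89, 7.99 and 6.76 in Ctrl. It had 13.8, 14.2 and 13.9 in AZD8055, 13.2, 13.6 and 13.6 in Torin2 and 12.9, 13.2 and 13.1 in DMSO, against 4.48 and 4.97 in 2 of 3 Col-0 libraries. It is 1 of the 40 regions under H3K9me2 peaks. RBCS1A RNA was at 17505 CPM in Ctrl. The region in RCA, Rubisco activase (chr2:16571764-16571919), had 4.68, 5.42 and 5.38 in amiR-fie-es, against 4.22, 4.26 and 3.84 in Ctrl, and no peak in any Col-0 library beside 6.94, 7.01 and 7.00 in DMSO. LHCB2.2, a light-harvesting protein gene, had 5.29, 5.05 and 5.05 in amiR-fie-es, against 3.37, 3.04 and 3.39 in Ctrl. RBCS1A and LHCB2.2 have near-identical copies, so that reads could be split among them.

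RNA showed what genes with narrow regions did when FIE was lowered or mutated. Genes were counted here if they carried a narrow region and none of 500 bp or more. Of 1554 such genes, 620 had enough counts to be tested. They were weakly expressed in Ctrl, with a median of 0.0979 CPM per kb over the 1403 in the count table, against 0.0669 for genes with a region of 500 bp or more and 1.68 for all genes. Tests on the 620 say nothing about the genes that failed the filter, of which most were weakly expressed. In these bulk samples, fewer cells of a type and less RNA per cell cannot be told apart, and the part of the lower leaf markers in amiR-fie-es and SSTS/AAAA in these RNA changes was not tested.

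In amiR-fie-es against Ctrl, 205 of the 620 rose (33.1%, against 29.3% of all genes tested), 228 fell (36.8%, against 30.0%) and 187 were not called. A rise of at least 2-fold was called at 99 (16.0%, against 4.63%) and a fall of at least 2-fold at 88 (14.2%, against 5.25%). The median log2 fold change was -0.05, against 0.01 over all genes tested and 0.01 over genes with a longer region. In SSTS/AAAA against GFP-FIE, 264 rose (42.6%, against 33.3%), 205 fell (33.1%, against 32.3%) and 151 were not called, with 156 rises (25.2%, against 7.65%) and 89 falls (14.4%, against 4.74%) of at least 2-fold. The median was 0.06, against 0.02 over all genes tested and 0.35 over genes with a longer region. Calls came from edgeR's quasi-likelihood test with an adjusted p under 0.05. Genes with a region of 500 bp or more had 23.0% rises and 15.8% falls of at least 2-fold in amiR-fie-es, and 34.3% rises and 13.0% falls in SSTS/AAAA. Changes of at least 2-fold in both directions were thus found in both classes. Both classes were more weakly expressed than all genes, and the part of expression level in these 2-fold shares was not tested.

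**Figure D5:**
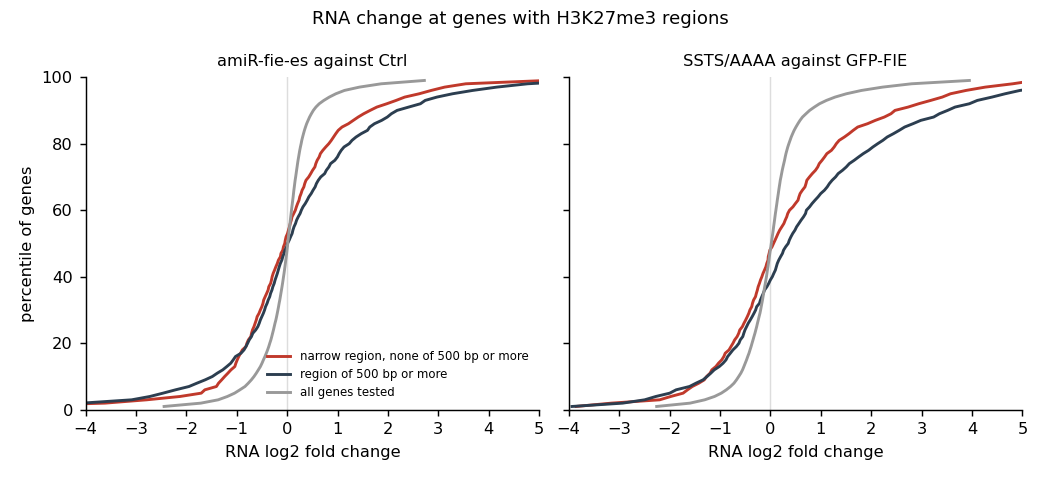
Percentiles (vertical axis) of the RNA log2 fold change (horizontal axis) over tested genes with a narrow region and no longer one, with a region of 500 bp or more, and over all genes tested, in amiR-fie-es against Ctrl (left) and SSTS/AAAA against GFP-FIE (right). The curve of narrow-region genes crosses that of all genes near 0 and is flatter on both sides, while the curve for longer regions is shifted to the right in SSTS/AAAA.

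RNA was then set beside the state of the region. In SSTS/AAAA against GFP-FIE, 143 tested genes had lost all their narrow regions, and 58 of them rose (40.6%) and 46 fell (32.2%, median log2 fold change -0.03). Of 72 with a kept region, 32 rose (44.4%) and 18 fell (25.0%, median 0.16), and of the 405 in between, 174 rose (43.0%) and 141 fell (34.8%, median 0.06). In amiR-fie-es against Ctrl, 183 of 541 genes whose regions were lost rose (33.8%), 193 fell (35.7%) and 90 rose at least 2-fold. Of the 13 tested genes with a kept region, 1 rose, 8 fell and none rose at least 2-fold. Of the 66 in between, 21 rose (31.8%), 27 fell (40.9%) and 9 rose at least 2-fold. The differences between these shares were not tested.

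The largest rises and falls are ranked here among genes with a narrow region and none of 500 bp or more; AGL17, which carries both kinds, was at 4.96, 4.34 and 5.30 CPM in amiR-fie-es, against 0, 0 and 0.0362 CPM in Ctrl, a larger fitted rise than any of them. Among the 8 that rose most in amiR-fie-es was TPS04, a terpene synthase of herbivore-induced volatiles, at 2.21, 2.69 and 2.36 CPM in amiR-fie-es, against 0.0358, 0 and 0 CPM in Ctrl. Only 1 read was counted in Ctrl, which gives a ratio of 227 with a 95% counting interval of 40.3 to 8996. CER4, an enzyme of wax alcohol synthesis, was at 4.87, 5.35 and 5.33 CPM in amiR-fie-es, against 0.143, 0.147 and 0.0362 CPM in Ctrl (log2 fold change 5.51 ± 0.27 SE, adjusted p = 6.70e-22). AT3G58250 was at 1.06, 0.672 and 0.742 CPM in amiR-fie-es and at 0 in Ctrl, at least 25.7-fold higher against a floor of 3 counts over the Ctrl group. MYB24, a regulator of stamen maturation, rose together with the lncRNA gene AT5G40348, which shares its narrow region. The pair may share reads, since the strand setting of the counting is not stated. AT4G05475, AT1G16705 and AT1G16950 completed the 8 largest rises, and the last 2 were also among the 8 largest in SSTS/AAAA.

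Some of the largest falls in amiR-fie-es reached 0 counts. GASA3, a gibberellin-regulated peptide gene, was at 0 in all 3 amiR-fie-es libraries, against 2.58, 2.02 and 1.96 CPM in Ctrl, at least 65.7-fold lower against the same floor. TSPO, a membrane protein gene induced by abscisic acid, was at 0.151, 0.0917 and 0.137 CPM in amiR-fie-es, against 17.5, 16.8 and 13.5 CPM in Ctrl (log2 fold change -6.93 ± 0.21, adjusted p = 2.66e-29). HSFA6A, a heat shock factor gene, was at 0.0908, 0.0611 and 0.137 CPM in amiR-fie-es, against 14.2, 13.4 and 12.7 CPM in Ctrl (-7.05 ± 0.21, adjusted p = 5.88e-30). AT5G44310 was at 0 in amiR-fie-es, against 1.29, 1.32 and 1.09 CPM in Ctrl, at least 37.0-fold lower. AT5G04380 also fell.

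In SSTS/AAAA the largest rise was at AT5G44630, a terpene synthase gene, at 5.87, 7.57 and 6.48 CPM, against 0.0357, 0 and 0.0372 CPM in GFP-FIE, where 2 reads were counted (ratio 318, 95% counting interval 87.6 to 2627). UMAMIT33, a transporter-family gene, was at 40.6, 40.9 and 44.5 CPM in SSTS/AAAA, against 1.75, 0.878 and 0.782 CPM in GFP-FIE (log2 fold change 5.19 ± 0.11 SE, adjusted p = 4.36e-36). HB21, a homeodomain gene of axillary buds, was at 4.27, 4.41 and 4.24 CPM, against 0.178, 0 and 0.0745 CPM in GFP-FIE (5.60 ± 0.32, adjusted p = 1.25e-19). AGL72, CSLG2 and AT5G57720 rose too. Among the falls, AT3G05727 was at 0.634, 0.566 and 0.405 CPM in SSTS/AAAA, against 113, 125 and 123 CPM in GFP-FIE (-7.81 ± 0.08, adjusted p = 9.97e-48), and the methionine sulfoxide reductase gene MSRB6 at 10.0, 8.79 and 10.2 CPM, against 191, 196 and 198 CPM (-4.34 ± 0.04, adjusted p = 4.50e-49). The region of AT3G05727 was present in 1 of 3 SSTS/AAAA and all 3 GFP-FIE libraries. AT3G09330, AT5G59330 and AT1G62225 were the other large falls.

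Of the 11 floral and flowering genes with a narrow region, 9 rose and 1 fell in amiR-fie-es, and all 11 rose in SSTS/AAAA (median log2 fold change 2.19 and 2.95, against 0.01 and 0.02 over all genes tested, of which 29.3% and 33.3% rose). The whole list was alike, with 21 of 28 tested genes up in amiR-fie-es and 23 of 28 in SSTS/AAAA (median 1.85 and 3.24). The call of MAF4 in SSTS/AAAA was lost without the first SSTS/AAAA or first GFP-FIE library (log2 fold change 0.29 and 0.22), and that of AGL19 without the third SSTS/AAAA, the second GFP-FIE or the third GFP-FIE library (0.64, 0.56 and 0.60). All but MAF5 also carry a longer region, so their RNA is not a readout of the narrow one. SEP3 was at 95.05, 96.5 and 98.6 CPM in amiR-fie-es, against 2.90, 3.74 and 2.65 CPM in Ctrl (log2 fold change 4.96 ± 0.06, edgeR adjusted p = 7.06e-44), and its narrow region stayed in all 3 libraries. AP1, which specifies floral meristems, was at 11.5, 9.74 and 11.5 CPM in SSTS/AAAA, against 0.0714, 0.0351 and 0.0372 CPM in GFP-FIE (7.71 ± 0.26, adjusted p = 7.64e-28), and both of its narrow regions were present in all SSTS/AAAA libraries. FLC was at 6.72, 7.15 and 7.44 CPM in amiR-fie-es, against 1.33, 1.80 and 1.52 CPM in Ctrl (2.19 ± 0.13, adjusted p = 3.83e-19), and its narrow region (chr5:3179032-3179263) stood in no amiR-fie-es library. MAF5, a relative of FLC whose narrow region is its only one (chr5:25997828-25998189), was at 1.51, 1.56 and 1.43 CPM in amiR-fie-es, against 4.44, 4.92 and 5.98 CPM in Ctrl (-1.78 ± 0.13, adjusted p = 2.01e-15). In SSTS/AAAA it was at 11.1, 10.7 and 10.1 CPM, against 5.89, 6.43 and 6.85 CPM in GFP-FIE (0.73 ± 0.09, adjusted p = 2.58e-09). Its region stood in no amiR-fie-es library, 3 SSTS/AAAA libraries and 2 GFP-FIE libraries. The directions of MAF5 thus differ between the comparisons, and the difference was not tested.

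Most meristem and boundary genes with a narrow region rose in SSTS/AAAA. Of the 7 with a narrow region, 6 rose and 1 fell there (median log2 fold change 1.63), and 2 rose and 1 fell in amiR-fie-es (median 0.24), where 33.3% and 29.3% of all genes tested rose. In the whole list 9 of 12 tested genes rose in SSTS/AAAA (median 1.66) and 3 of 12 in amiR-fie-es (median 0.14). The call of YAB3 in SSTS/AAAA was lost without the first or second GFP-FIE library (log2 fold change 0.04 and 0.10), and that of KNAT6 in amiR-fie-es without the first or the third amiR-fie-es or the first or the second Ctrl library (0.20 to 0.26). CUC1 and CUC3, NAC factors of organ boundaries, carry narrow regions alone. CUC1 was at 1.65, 1.52 and 1.46 CPM in SSTS/AAAA, against 0.286, 0.316 and 0.224 CPM in GFP-FIE (log2 fold change 2.46 ± 0.29, adjusted p = 7.46e-10), and its region (chr3:5111173-5111329) was in no SSTS/AAAA and all GFP-FIE libraries. In amiR-fie-es, which also lacked the region, CUC1 was at 0.484, 0.306 and 0.439 CPM, against 0.322, 0.330 and 0.217 CPM in Ctrl, groups that overlap (adjusted p = 0.269). WOX1, a homeobox gene of leaf blade outgrowth, fell in both comparisons, by 1.1 in amiR-fie-es and 1.12 in SSTS/AAAA on the log2 scale (adjusted p = 7.30e-13 and 1.05e-11).

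Of the 5 embryo and seed regulators with a narrow region, only DOG1, a dormancy gene, had enough counts to be tested, and it rose in both comparisons. LEC1, FUS3, PHE1 and BBM, all transcription factor genes, stayed at or below 0.2205 CPM in all 12 libraries. MEA, the PRC2 methyltransferase of the seed, was the only PRC2 gene with a narrow region (chr1:548659-548984). MEA also carries a region of 500 bp or more, so its RNA is not a readout of the narrow one. Its RNA was at 1.48, 1.41 and 1.51 CPM in amiR-fie-es, against 0, 0.0367 and 0.0362 CPM in Ctrl, where 2 reads were counted (ratio 68.9, 95% counting interval 18.7 to 574). It was at 0.606, 0.655 and 1.35 CPM in SSTS/AAAA, against 0.0714, 0 and 0.0745 CPM in GFP-FIE (log2 fold change 4.07 ± 0.54, adjusted p = 1.11e-08). The narrow region was in no amiR-fie-es and 1 SSTS/AAAA library.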

How the data were processed

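H3K27me3, H3K9me2 and RNA libraries were grouped by their labels, and no column stayed unmapped (0 unused). The RNA columns of SSTS/AAAA carry another short name (NST), which was matched to that group through the ChIP peak lists of the same name. Per the submitters' processing notes, the tools were FastQC 0.11.5, Trimmomatic 0.36, HISAT2 2.1.0 and featureCounts of Subread 1.5.3 for RNA, and BWA 0.7.15-r1142, SAMtools 1.6 and MACS2 for ChIP. The MACS2 version, input controls, q threshold, strand setting and treatment of reads with several matches are not given in the sources used here. The deposited RNA values are raw counts per gene beside gene length. Each peak list belongs to 1 library, and the authors' caller wrote per peak a score, a fold ratio at the summit and −log10 p and q values. The score and the p-values were not used, and −log10 q served only in 1 alternative.

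A region's fold in a library is the highest fold of a peak that overlaps it, whose summit may lie outside the region. Coordinates are TAIR10, 1-based. Gene names and positions came from RefSeq annotation TAIR10.1 (31912 of 32678 IDs matched); no gene coordinate is printed, and a shift check found 397 genes covered over 90% unshifted, against 79 to 105 after shifts of 1 to 20 kb. Genome sequence was not used here.

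Coverage and fold were compared with exact two-sided permutation tests (numpy 2.4.6), adjusted by Benjamini-Hochberg over 4 comparisons. RNA was fitted once over all 12 libraries with edgeR 4.0.16 (R 4.3.3, filterByExpr, TMM, quasi-likelihood test, Benjamini-Hochberg over 20046 genes). CPM carry no prior count, and counting intervals (scipy 1.17.1) cover counting error only. On simulated data of the amiR-fie-es comparison (20046 genes) the edgeR fit recovered 69 of 77 changes of 1.5-fold, 67 of 67 of 2-fold and 56 of 56 of 4-fold, with 11 false calls. The changed genes were drawn only from those with a mean above 1 CPM. Recovery at weaker genes, such as many with a narrow region, was therefore not measured. The members and lists were chosen with earlier results of these data known. The named regions and genes are those of the lists, the 5 highest Ctrl folds, the highest folds among regions present in all other libraries, left in amiR-fie-es, lost or gained, and the 8 largest rises and 5 largest falls; the set left in amiR-fie-es outside H3K9me2, the 4-region pattern and the top 1% of genes by RNA were added after the values had been seen. DESeq2 1.42.0, other scalings, filters, region definitions and left-out libraries were alternatives.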

Additional observations from a re-analysis of the deposited data

How the results depend on the processing

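All 4 coverage differences kept their direction under every alternative, including other length limits, other gap joins, stricter peaks and regions without H3K9me2; the last, and Torin2 against AZD8055, were chosen after seeing the data. Leaving out 1 library gave -51.0 to -47.5 points for SSTS/AAAA against GFP-FIE, -24.5 to -21.9 for tor-es, -30.2 to -28.1 for AZD8055 and -16.0 to -13.7 for Torin2. Reversals came with bases in 2 of 3 Ctrl libraries for the tor-es log2 fold (0.004424, exact permutation p = 0.6) and with a −log10 q of at least 5 for the AZD8055 narrow-to-long ratio (0.0755); the cause was not tested.

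Counts depended on the definitions. With bases in 2 of 3 Ctrl libraries, SSTS/AAAA had 374 lost, 1 gained and 105 kept, tor-es 93 lost and 118 kept, AZD8055 9 gained and 679 kept, and Torin2 833 kept. With −log10 q of at least 5, SSTS/AAAA had 242 lost and 105 kept, tor-es 72 and 89, AZD8055 124 and 513, and Torin2 43 and 611. When present meant at least 90% of bases, SSTS/AAAA had 402 lost and 70 kept, tor-es 78 and 44, AZD8055 2 gained and 442 kept, and Torin2 3 gained and 638 kept. An upper length limit lower by 100 bp kept 141 in SSTS/AAAA, 157 in tor-es, 687 in AZD8055 and 870 in Torin2, and one higher by 100 bp kept 438 in SSTS/AAAA and 511 in tor-es. Joining gaps of 500 bp or less gave 3 gained with Torin2.

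Leaving out 1 library gave 705 to 792 lost and 0 to 1 gained in SSTS/AAAA, 228 to 281 lost and 9 to 17 gained in tor-es, 338 to 398 lost and 5 to 8 gained with AZD8055, and 115 to 154 lost and 6 to 11 gained with Torin2; fewer libraries make each call easier. Genes with a narrow region called in RNA numbered 433 in amiR-fie-es and 469 in SSTS/AAAA, 400 to 417 and 450 to 459 without 1 library, and 213 and 231 with −log10 q of at least 5. Among single genes not called in amiR-fie-es, KNAT1 changed sign without the first amiR-fie-es library (log2 fold change -0.026, range over left-out libraries to 0.12), and CUC3 without the third (0.1231) or without the first Ctrl library (0.006576); leaving out 1 library gave CUC3 log2 fold changes of -0.49 to 0.12.

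Same-numbered libraries did not deviate together (correlations of -0.0425 to 0.0048 in RNA and -0.0216 to 0.0084 in ChIP), so the numbers do not pair them. A replicate block gave 430 genes in amiR-fie-es and 467 in SSTS/AAAA. Pairing cannot change the coverage differences, since the mean of paired differences equals the difference of means. ChIP depth is not known here, so that a missing peak is not an absent mark, and 934 of the 1554 narrow-region genes had no RNA test.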
